A study of Homo sapiens with 4 samples.

Results

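The mitochondrial ribosome is built from a pair of RNAs encoded in mitochondrial DNA and a large set of proteins encoded in the nucleus, most of which carry the gene symbols MRPL (large subunit) or MRPS (small subunit) and a number. The protein-coding genes with such a symbol were taken as members, which gave 78 genes of the 35585 genes named in the deposited tables. A further 75 symbols of the same form but of pseudogenes were left out. By their place in the ribosome, 51 of the 78 proteins belong to the large subunit and 26 to the small subunit. The remaining protein, MRPS36, keeps the name but is not found in the ribosome structure. By position in the ribosome, 46 of the 77 ribosomal members have a counterpart in bacteria and 31 are specific to mitochondria. The 31 include MRPS18A and MRPS18B, which are related to a bacterial protein but sit at other positions. The genes lie on 21 chromosomes.

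RNA was sequenced from microglia-like cells (iMGL) derived from the human induced pluripotent stem cell line WTC11. The WT group held 2 libraries from wild-type cells and the S1KO group held 2 libraries from cells without SHIP1, the lipid phosphatase encoded by INPP5D. All 4 libraries were made from cultured cells that share the WTC11 background, and the S1KO cells differ by the knockout alone as far as the labels say. The study states that 2 clones were used for each genotype, and its purpose for these libraries was to examine microglial markers and whether cells without SHIP1 still differentiate. The labels do not tie a library to a clone, so p-values here measure the spread between these libraries only.

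Mitochondrial ribosomes translate the few proteins that mitochondrial DNA encodes, all of them core subunits of the respiratory chain and ATP synthase. The ribosomal proteins are made in the cytosol and imported, so the supply of a complete ribosome depends on many nuclear genes being transcribed alongside the mitochondrial rRNAs. Microglia, the resident macrophages of the brain, use oxidative metabolism in their surveying state and move towards glycolysis when strongly stimulated. The promoters of many nuclear genes for mitochondrial proteins are known to be bound by NRF1, by ETS-family factors such as GABPA, and by YY1.

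Promoters were available from RefSeq (GRCh38.p14) for 69 of the 78 members, each from 250 bases before to 50 bases after the annotated start. Members without a promoter in that table were MRPL2, MRPL10, MRPL13, MRPL15, MRPL21, MRPL23, MRPL35, MRPS28 and MRPS36. A gene was counted as holding a motif if the promoter of any of its listed starts held it. The ETS letters CCGGAAG, searched on both strands, occurred in 30 of the 69 members (43.5%, 95% Wilson interval 32.4 to 55.2%). They occurred in 16.5% of the 15842 protein-coding genes with promoters of the same length. The YY1 letters AAGATGGCG, also on both strands, occurred in 13 of the 69 (18.8%, interval 11.4 to 29.6%), against 3.21%. The 10 NRF1 letters, GCGCATGC followed by GC, occurred in 1 of the 69 (1.45%) against 1.99%. The 8-letter core GCGCATGC alone, which was chosen after that count was seen and which the longer motif contains, occurred in 6 of the 69 (8.70%) against 4.89%. The ETS and YY1 letters were thus found in larger shares of members than of protein-coding genes, and the 10 NRF1 letters were not. A match is a run of letters in the window and not a measured binding site. As 11 of the members list several starts, those had more windows in which a match could occur.

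The promoters of 6 genes are printed here over the 100 bases before the start, 5′ to 3′ on the gene's strand, because these genes are the 4 members of highest level (MRPL41, MRPL53, MRPS34 and MRPL20), the member of highest log2 difference (MRPS5) and a member among the 5 of lowest (MRPL18). Where a gene lists several starts, the start with the most motif matches in these 100 bases was printed. Capitals mark CCGGAAG or its reverse complement CTTCCGG. MRPS34 (chr16:1773135-1773234, minus strand) holds 3 matches, the nearest of them beginning 19 bases before the start, and MRPL20 (chr1:1407294-1407393, minus strand) holds 2. MRPL53 (chr2:74472681-74472780, minus strand) and MRPL18 (chr6:159790367-159790466, plus strand, from 1 of its 3 listed starts) hold 1 each. MRPL41 (chr9:137551779-137551878, plus strand) and MRPS5 (chr2:95121809-95121908, minus strand, from 1 of its 2 listed starts) hold none in these 100 bases.
MRPS34: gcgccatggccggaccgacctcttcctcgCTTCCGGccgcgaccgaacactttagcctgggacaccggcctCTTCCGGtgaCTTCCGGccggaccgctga
MRPL20: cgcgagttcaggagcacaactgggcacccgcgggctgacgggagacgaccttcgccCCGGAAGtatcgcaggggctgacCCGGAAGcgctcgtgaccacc
MRPL53: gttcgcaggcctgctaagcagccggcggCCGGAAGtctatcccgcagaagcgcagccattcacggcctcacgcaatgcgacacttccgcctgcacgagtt
MRPL18: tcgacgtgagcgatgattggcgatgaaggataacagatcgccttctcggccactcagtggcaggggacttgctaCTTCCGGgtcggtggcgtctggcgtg
MRPL41: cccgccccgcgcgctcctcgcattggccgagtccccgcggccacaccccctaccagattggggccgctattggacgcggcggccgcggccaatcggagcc
MRPS5: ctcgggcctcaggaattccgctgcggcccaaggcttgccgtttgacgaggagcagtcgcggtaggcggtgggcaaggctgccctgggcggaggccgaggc

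A start site shared head to head with another protein-coding gene was frequent among the members. Within 1000 bases upstream on the opposite strand, 17 of the 78 members (21.8%) had the start of another protein-coding gene, against 7.37% of 19969 protein-coding genes. One such pair consists of members only, MRPS11 of the small subunit and MRPL46 of the large subunit. MRPL36 and MRPL47 share their start regions with NDUFS6 and NDUFB5, which encode subunits of respiratory complex I, and MRPL18 shares its own with TCP1, a subunit of the cytosolic chaperonin.

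The libraries held 21516813 and 25927881 estimated counts for WT and 22792480 and 22334585 for S1KO. Of these, 14.2 and 18.9% were mitochondrially encoded in the WT pair and 52.3 and 39.2% in the S1KO pair. With nuclear copies of mitochondrial genes and unnamed transcripts also set aside, the WT libraries kept 18055180 and 20539912 counts on named nuclear genes and the S1KO libraries 9318796 and 12890924. Scaled CPM, the unit used for comparisons between libraries, divides a gene's count by the library size after TMM normalisation over all genes. INPP5D, the targeted gene, stood at 356 and 441 scaled CPM in WT and 81.0 and 97.6 in S1KO, a log2 difference of -2.16 ± 0.21 (SE, edgeR quasi-likelihood adjusted p = 0.0184). Levels between genes are given per length, as TPM rescaled after mitochondrially encoded genes and their nuclear copies were removed (nuclear TPM), because a large mitochondrial share lowers the TPM of every other gene. All 8 microglial markers were detected in every library. Their summed level was 6514 and 6053 nuclear TPM in WT and 4713 and 5001 in S1KO. The genotypes overlapped in SPI1 (1347 and 2008 in WT, 1406 and 1436 in S1KO) and AIF1 (1637 and 1249 in WT, 1674 and 1582 in S1KO). Each other microglial marker had its S1KO values under its WT values, such as TREM2 (596 and 739 in WT, 266 and 358 in S1KO). For CX3CR1 the WT 2 value (47.4) lay close to the S1KO values (42.6 and 45). The library WT 1 also held mesenchymal transcripts: 7 such markers summed to 1522 nuclear TPM there, led by COL1A1 at 954, and to between 14.9 and 24.8 in the other libraries. All 4 granulocyte and mast cell markers were at 0, and the 4 pluripotency markers summed to between 8.67 and 12.2 nuclear TPM. In bulk libraries, fewer cells of a type and less RNA per cell cannot be told apart.

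All 78 members were detected in all 4 libraries and all passed the filter on low counts. The smallest count of any member was 222 and 139 in the WT libraries and 95 and 107 in the S1KO libraries, with medians of 624, 603, 313 and 417. Mean nuclear TPM over the libraries ran from 7.91 for MRPL50 to 378 for MRPL41. The median member stood at 52.6 nuclear TPM, against 15.5 for the protein-coding genes tested.

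MRPL41, a mitochondria-specific protein of the large subunit, was the most abundant member, at 366 and 386 nuclear TPM in WT and 373 and 388 in S1KO. It was followed by MRPL53, also specific to mitochondria, at 189 and 182 in WT and 194 and 190 in S1KO. The S1KO libraries of these genes lay inside or just above the WT range. MRPS34, a mitochondria-specific protein of the small subunit, came next at 176 and 126 in WT and 154 and 182 in S1KO. MRPL20, the counterpart of a bacterial protein needed to assemble the large subunit, stood at 174 and 144 in WT and 153 and 163 in S1KO. In nuclear TPM the genotypes overlapped in both genes, while in scaled CPM MRPL20 lay lower in S1KO without overlap (41.8 and 37.2 in WT, 36.5 and 36.5 in S1KO, log2 difference -0.11 ± 0.17). The mean nuclear TPM of MRPS34 (159) and MRPL20 (158) differed by less than the spread between libraries. The lowest members were MRPL50 (9.28 and 6.40 in WT, 9.97 and 6.0 in S1KO), MRPS14 (13.1 and 8.16, 10.9 and 7.12), MRPS17 (11.8 and 9.39, 10.3 and 11.5) and MRPS30 (15.4 and 12.1, 17.5 and 12.6). The order of the members was much the same in every library: Spearman's rho of nuclear TPM over the 78 genes was between 0.929 and 0.958 for the 6 pairs of libraries, as a description over genes that share each library's depth.

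No member passed the test for a difference between S1KO and WT. With edgeR's quasi-likelihood test on the estimated counts, adjusted by Benjamini-Hochberg over 15378 genes, 0 of 78 members were called higher (0.787% of all genes were) and 0 of 78 lower (0.150% of all genes were). The smallest adjusted p among the members was 0.121, for MRPS5. At an unadjusted p under 0.05, 1 member was higher and 5 were lower, against 10.2 and 9.21% of all genes. DESeq2 called 1 member higher, MRPS5, and 0 lower, against 4.30 and 3.34% of all genes. The median log2 difference of the members was -0.06, beside -0.02 over all genes tested, and 48 members had a negative and 30 a positive value.

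The differences were small and most were measured closely. They ran from -0.72 for MRPS6 to 0.81 for MRPS5, and 72 of the 78 lay within 0.5 of 0 on the log2 scale (92.3%, against 64.4% of all genes tested). For 66 of the 78 members (84.6%) the whole 95% interval lay within a 2-fold change either way, against 46.9% of all genes, most of which are expressed at lower levels. The median standard error was 0.22. The 51 large subunit genes had a median of -0.10 and the 26 small subunit genes a median of 0.01. The 46 members with a bacterial counterpart had a median of -0.09 and the 31 mitochondria-specific members one of -0.04. These medians lay closer together than the members within each set, whose interquartile ranges ran from -0.26 to 0.06 in the large subunit and from -0.26 to 0.22 in the small subunit.

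**Figure D1:**
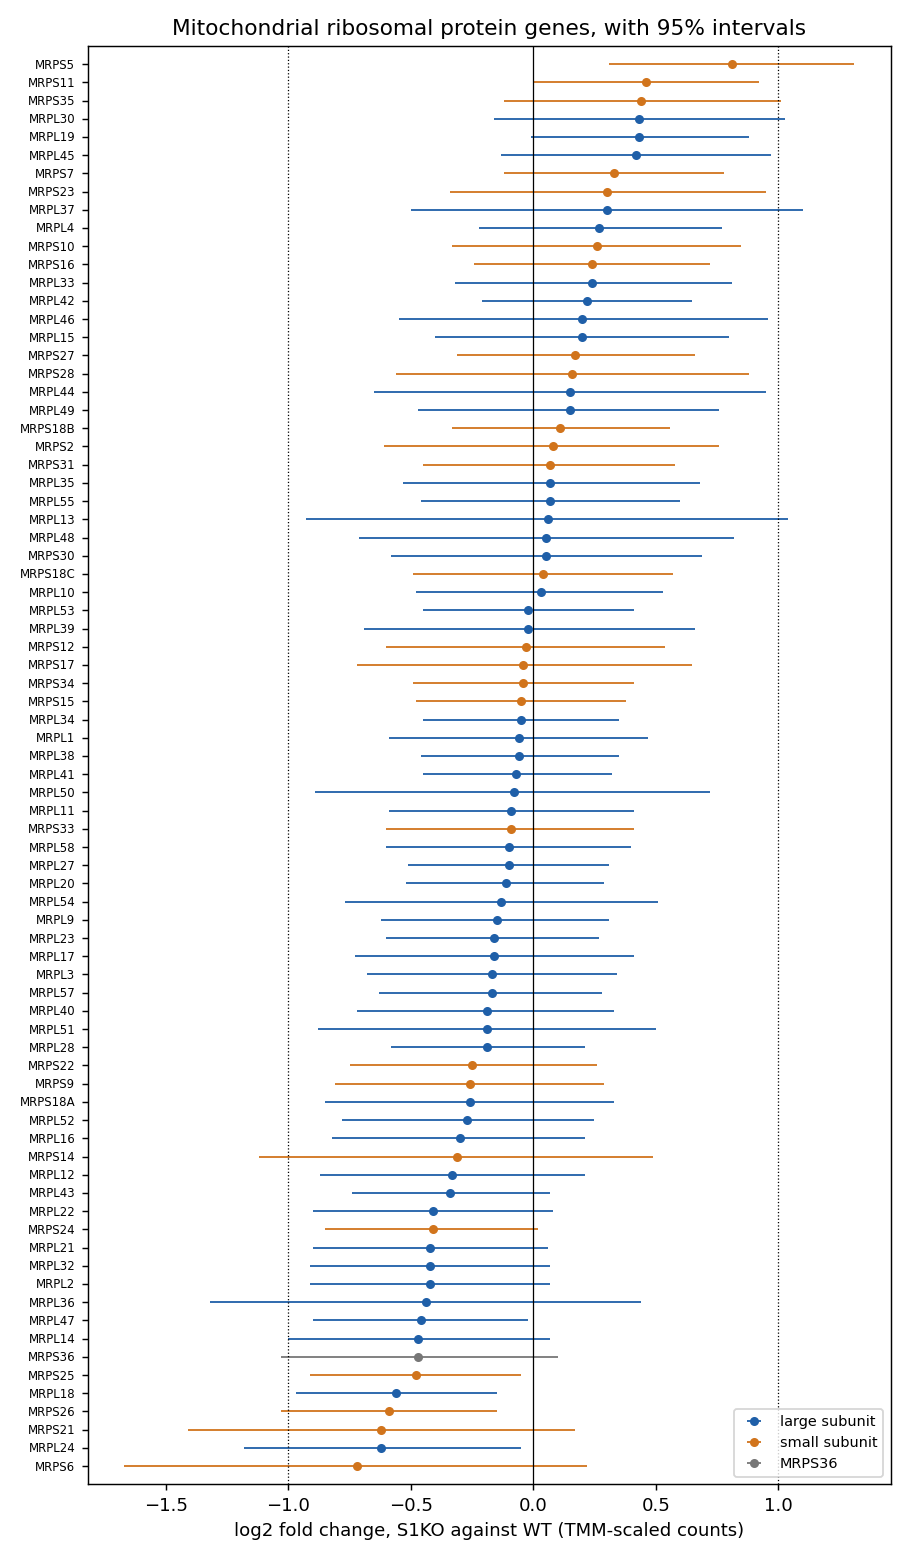
Log2 difference of each member between S1KO and WT on TMM-scaled counts, with the 95% interval of the edgeR fit as a bar, ordered by value and coloured by subunit (dotted lines mark a 2-fold change). The values run from -0.72 for MRPS6 to 0.81 for MRPS5, and 72 of the 78 intervals reach across 0.

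MRPS5 of the small subunit (chr2:95087207-95149434, GRCh38) had the largest positive difference. Its bacterial counterpart lines the channel through which mRNA enters the ribosome. The WT libraries gave 74.4 and 51.9 scaled CPM and the S1KO libraries 113 and 108, so both S1KO libraries lay above both WT libraries. The log2 difference was 0.81 ± 0.21 (SE, 95% interval 0.31 to 1.31, n = 2 and 2), with an adjusted p of 0.121 by edgeR's quasi-likelihood test and 0.0171 by DESeq2. The gene was also called higher by edgeR with no filter on low counts (2.60% of all genes were) and without WT 1 (5.96% were). On transcripts annotated as protein coding alone the difference was 0.10, and these transcripts carried 31.5% of the gene's counts on average.

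MRPS11 of the small subunit, whose bacterial counterpart sits on the platform of the small subunit, stood at 30.3 and 24.1 scaled CPM in WT and 38.4 and 36.3 in S1KO (0.46 ± 0.19, edgeR adjusted p = 0.261). MRPS35, a mitochondria-specific protein of the small subunit, stood at 16.7 and 14.3 in WT and 24.4 and 17.9 in S1KO (0.44 ± 0.23, edgeR adjusted p = 0.356). The genotypes did not overlap in these genes, and neither passed the test. In coding transcripts alone the value of MRPS11 was 0.02 and that of MRPS35 stayed at 0.44. Allowing for the effective length of the transcripts in use brought MRPS11 to -0.04.

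MRPS6, the counterpart of a bacterial platform protein, had the largest negative difference and it rested on a single library. The WT libraries gave 22.1 and 53.4 scaled CPM and the S1KO libraries 22.6 and 23.2, so WT 2 stood apart and WT 1 lay beside the S1KO libraries (-0.72 ± 0.39, edgeR adjusted p = 0.369). Without WT 2 the difference was 0.05, and without WT 1 it was -1.22 and the gene was called lower (6.53% of all genes were). MRPS21, the counterpart of another platform protein, was set by a single library too, at 56.6 and 56.6 in WT and 49.6 and 24.2 in S1KO (-0.62 ± 0.33, edgeR adjusted p = 0.354). MRPS26, a mitochondria-specific protein, gave closer replicates, at 30.3 and 29.2 in WT and 21.1 and 18.6 in S1KO (-0.59 ± 0.18, interval -1.03 to -0.15, edgeR adjusted p = 0.169).

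Among large subunit genes, MRPL24 and MRPL18 had the largest negative differences. MRPL24, whose bacterial counterpart starts the assembly of the large subunit, stood at 34.7 and 24.0 scaled CPM in WT and 19.9 and 18.4 in S1KO (-0.62 ± 0.23, edgeR adjusted p = 0.224). MRPL18 (chr6:159789812-159798436), whose bacterial counterpart binds 5S rRNA, stood at 45.3 and 40.3 in WT and 28.9 and 29.1 in S1KO (-0.56 ± 0.17, interval -0.97 to -0.15, edgeR adjusted p = 0.160). Both S1KO libraries were below both WT libraries in each gene. The WT 1 value of MRPL24 was the highest of the 4. Without WT 1 its difference was -0.32 (edgeR adjusted p = 0.467), and without WT 2 it was -0.86 and the gene was called lower together with MRPL14 (7.32% of all genes were). On nuclear TPM, log2 differences were -0.48 for MRPL24 and -0.47 for MRPL18.

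At the other end, MRPL19 stood at 16.1 and 16.4 scaled CPM in WT and 22.1 and 21.8 in S1KO (0.43 ± 0.19, edgeR adjusted p = 0.270). MRPL30 stood at 19.3 and 13.5 in WT and 24.2 and 20 in S1KO (0.43 ± 0.25, edgeR adjusted p = 0.389). Both are counterparts of bacterial large subunit proteins, and in both the genotypes did not overlap in scaled CPM. With effective length allowed for, the value of MRPL19 was 0.10 (edgeR adjusted p = 0.905), and in nuclear TPM its genotypes overlapped (18.8 and 10.1 in WT, 15.8 and 16.9 in S1KO). The value of MRPL30 depended on which transcripts were counted: it was 0.96 on coding transcripts alone and -0.05 once effective length was allowed for. MRPL13 showed how far libraries of a genotype could lie apart, at 7.94 and 4.44 in WT and 7.88 and 5.03 in S1KO, with a difference of 0.06 ± 0.41.

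**Figure D2:**
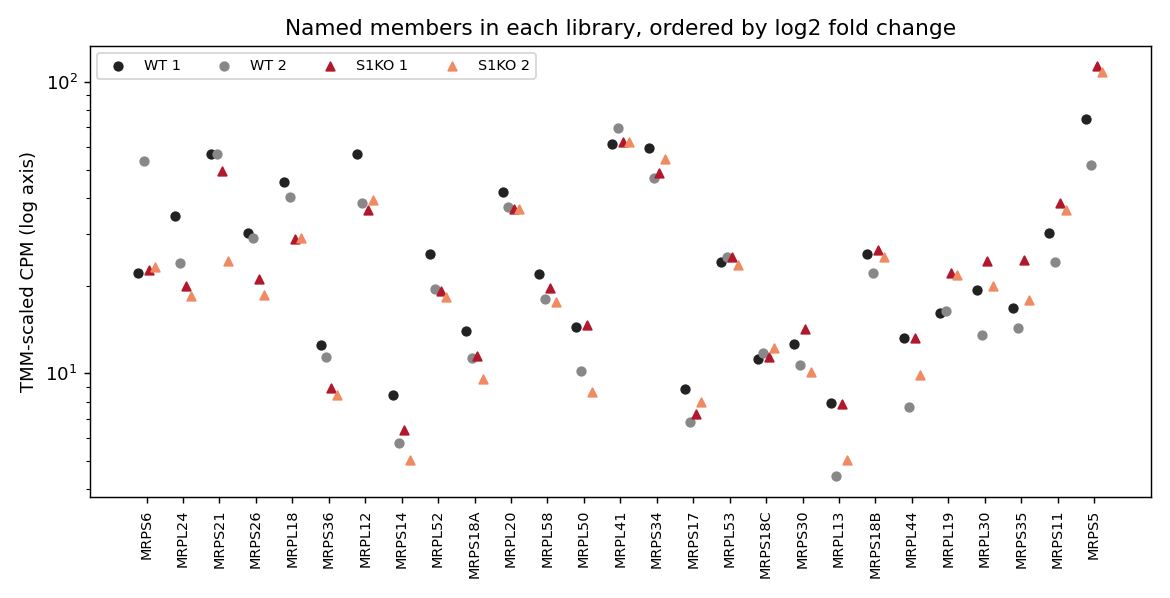
TMM-scaled CPM (log axis) of the 27 members named by rule, in the 2 WT (circles) and 2 S1KO (triangles) libraries, ordered by log2 difference. MRPS5 lies at 113 and 108 in S1KO against 74.4 and 51.9 in WT, while in MRPS6 the library WT 2 at 53.4 stands apart from the other 3.

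Several members have roles apart from, or added to, the ribosome's core. MRPL12, the stalk protein that recruits translation factors and that also binds the mitochondrial RNA polymerase, stood at 56.6 and 38.5 scaled CPM in WT and 36.3 and 39.2 in S1KO, with only WT 1 high. MRPL58, a peptidyl-tRNA hydrolase built into the large subunit, stood at 22 and 18.0 in WT and 19.7 and 17.6 in S1KO. MRPL44, which has an RNase III fold, stood at 13.2 and 7.66 in WT and 13.2 and 9.87 in S1KO. The genotypes overlapped in these 3 genes, with log2 differences of -0.33, -0.10 and 0.15. MRPS36, which is now known as a subunit of the 2-oxoglutarate dehydrogenase complex, stood at 12.5 and 11.4 in WT and 8.89 and 8.41 in S1KO (-0.47 ± 0.23, edgeR adjusted p = 0.335), without overlap.

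The paralogs MRPS18A, MRPS18B and MRPS18C descend from a single bacterial protein, and only MRPS18C keeps its place in the small subunit. MRPS18B sits elsewhere in the small subunit and MRPS18A, in spite of its name, in the large subunit. In nuclear TPM, MRPS18B was the highest, with a WT mean of 41.9 ± 7.22 and an S1KO mean of 52.7 ± 5.41 (SD, 2 libraries each). MRPS18A followed at 31.3 ± 6.21 and 28.0 ± 1.76, and MRPS18C was the lowest at 19.2 ± 0.775 and 20.4 ± 1.36. The genotypes overlapped in scaled CPM for all 3. Reads of MRPS18A may be shared with a pseudogene copy, which held between 7.66 and 15% of the counts of the gene across the libraries.

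Counted gene by gene, the S1KO values of 22 of the 78 members (28.2%) all lay under the WT values, as did those of 25.8% of all genes, a share near the background. In 10 members (12.8%) they all lay above, a smaller share than the 26% of all genes. Those 10 were MRPL19, MRPL30, MRPL33, MRPL42, MRPL45, MRPS5, MRPS7, MRPS11, MRPS16 and MRPS35, of which 5 belong to each subunit. Of the 22 lower members, 16 are among the 51 large subunit genes and 5 among the 26 small subunit genes, and the last is MRPS36.

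Libraries of a genotype differed in the members as a set. WT 1 was above WT 2 in 62 of the 78 members (79.5%, against 48.3% of all genes), with a median log2 difference of WT 2 over WT 1 of -0.28. S1KO 1 was above S1KO 2 in 56 (71.8%, against 49.2% of all genes), with a median of -0.11. WT 1 gave the highest of the 4 values in 38 members, S1KO 1 in 24, WT 2 in 12 and S1KO 2 in 4. The median difference between WT libraries was thus larger than the median between genotypes. WT 1 is the library with the mesenchymal transcripts (1522 nuclear TPM for the 7 markers), whose part in its higher member levels was not tested. Without WT 1 the median of the members was 0.03, and without WT 2 it was -0.18.

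As deposited, TPM values gave another picture that moved with the mitochondrial share. The members summed to 3998 and 3097 TPM in WT and 1336 and 2075 in S1KO, a 2.08-fold lower mean in S1KO without overlap. An exact two-sided permutation test gave p = 0.333, the smallest that 2 against 2 libraries allow. With mitochondrially encoded genes and their nuclear copies out of the total, the sums were 5473 and 4588 in WT (mean 5031 ± 626, SD) and 5070 and 4957 in S1KO (5014 ± 79.8, SD), so both S1KO sums lay between the WT sums (exact permutation p = 1.0). In limma's test on log2(TPM + 1), 14 members were called lower and 0 higher, against 17.9 and 0.865% of all genes. That scale moved the median of all genes to -0.78, and the median of the members was -1.01, a difference of -0.22 between them. With 0.1 in place of 1 added, 12 members were called lower, against 16.4% of all genes. The medians were then -1.04 for the members and -0.967 for all genes. The difference between them was -0.072, so the gap of -0.22 depended on the value added. On deposited TPM the S1KO values of 73 members (93.6%) all lay under the WT values, against 71.0% of all genes. On the same scale 0 lay above, against 4.29% of all genes. On nuclear TPM 11 members (14.1%) lay under, against 20% of genes, and 15 (19.2%) above, against 30.3%. On that scale limma called 0 members in either direction, against 1.76% of genes higher and 0.183% lower, with 1 member higher and 2 lower at an unadjusted p under 0.05 (12.7 and 6.05% of genes).

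**Figure D3:**
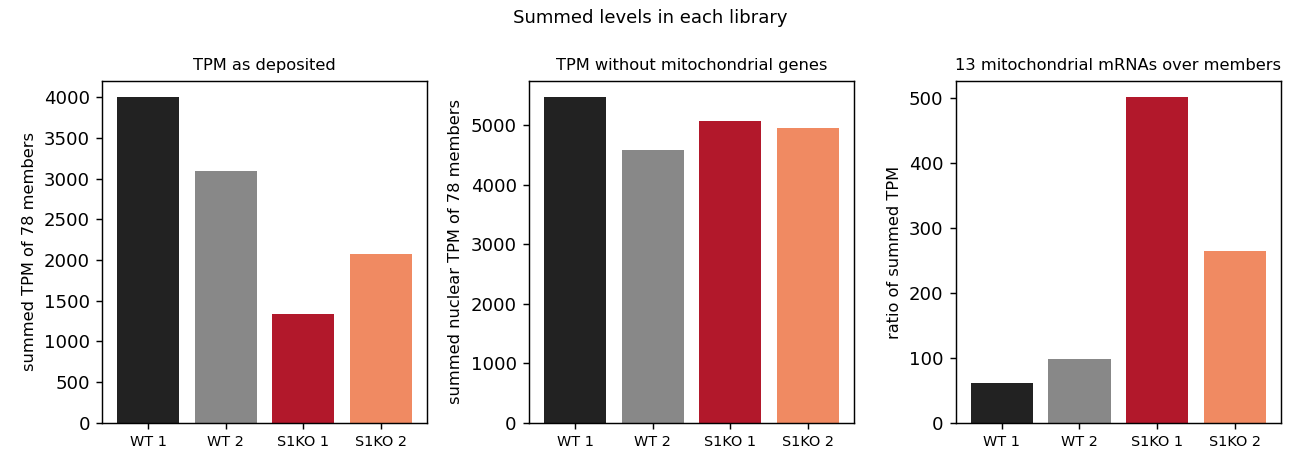
Bars give, for each library, the summed deposited TPM of the 78 members (left), their summed TPM after mitochondrial genes were removed from the total (middle) and the summed TPM of the 13 mitochondrially encoded mRNAs divided by that of the members (right). The S1KO bars are lower on the left (1336 and 2075 against 3998 and 3097), lie within the WT values in the middle, and are higher on the right.

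The ratio of the mitochondrial mRNAs to the RNA of the members, MRPS36 included, differed between the libraries. The 13 mitochondrially encoded mRNAs summed to 61.6 and 97.7 times the TPM of the members in WT and to 500 and 264 times in S1KO. The mean ratio was 4.8-fold higher in S1KO without overlap, on a scale that does not depend on the library total (exact two-sided permutation p = 0.333, the smallest possible). Summed nuclear TPM of the members had means of 5031 in WT and 5014 in S1KO. The ratio thus moved with the mitochondrially encoded share of counts (14.2 and 18.9% in WT, 52.3 and 39.2% in S1KO). Ratios to other nuclear sets were not computed. On scaled counts the median log2 difference was -0.06 for the members, -0.17 for nuclear respiratory chain subunits and -0.07 for cytosolic ribosomal proteins. The median log2 difference of the 13 mRNAs was 2.22 on scaled counts. None of the 13 passed edgeR's quasi-likelihood test, where MT-ND4L had the smallest adjusted p (0.0913), and DESeq2 called all 13 higher. The mitochondrial rRNAs MT-RNR1 and MT-RNR2 were not analysed here.

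The ratio of large to small subunit members was steadier. Summed nuclear TPM of the large subunit were 3865 and 3273 in WT and 3525 and 3429 in S1KO, and those of the small subunit were 1578 and 1291 in WT and 1528 and 1502 in S1KO. The large subunit exceeded the small subunit 2.45- and 2.53-fold in WT and 2.31- and 2.28-fold in S1KO. The libraries of a genotype lay closer together than the genotypes, which did not overlap (exact two-sided permutation p = 0.333, the smallest possible). The small subunit sums include MRPS5, at 103 and 61.0 nuclear TPM in WT and 171 and 175 in S1KO. The ratio is thus not read as a shift across the subunits, and its value without MRPS5 was not tested.

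Genes that work with the ribosome were compared in the same fit. The 5 further ribosomal subunits without an MRP symbol had a median log2 difference of -0.16 and none was called. Among them GADD45GIP1, a large subunit protein, stood at 38.2 and 36.2 scaled CPM in WT and 29.2 and 30.4 in S1KO (-0.32 ± 0.17, edgeR adjusted p = 0.350), and DAP3 of the small subunit stood at 0.18 ± 0.17. Of 14 translation factors 1 was called higher, C12orf65, a member of the release factor family that rescues stalled mitochondrial ribosomes. It stood at 37.8 and 37.3 scaled CPM in WT and 85.1 and 84.5 in S1KO, a log2 difference of 1.18 ± 0.16 (edgeR quasi-likelihood adjusted p = 0.0405). Both S1KO libraries were above both WT libraries and replicates lay within 1 CPM of each other. DESeq2 called it as well (adjusted p = 7.21e-08), while edgeR's adjusted p was 0.0551 with the effective length offset, 0.0796 on coding transcripts alone, 0.686 without S1KO 1 and 0.405 without S1KO 2, with log2 differences between 1.05 and 1.22. On deposited TPM the difference was 0.05 with either pseudocount (limma adjusted p = 0.936 with 1 added and 0.938 with 0.1 added), and on nuclear TPM it was 1.11. The other 13 translation factors ran from -0.42 to 0.35 and none passed the test.

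None of 25 assembly factors was called, with a median of -0.01. Of 20 aminoacyl-tRNA synthetase genes that charge or complete mitochondrial tRNAs, 19 were tested and none was called, with a median of 0.00. The lowest was LARS2, the leucyl-tRNA synthetase, at 8.44 and 5.24 scaled CPM in WT and 3.17 and 2.35 in S1KO (-1.31 ± 0.40, edgeR adjusted p = 0.160). Of 9 regulators of mitochondrial gene expression, 8 were tested and none was called, with a median of 0.04. PPARGC1B, a coactivator of nuclear receptors, stood at 0.38 ± 0.19.

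The 79 nuclear respiratory chain subunits had a median of -0.17 with 55 negative values, and the 78 cytosolic ribosomal proteins tested had a median of -0.07 with 50 negative values. No gene of either list passed edgeR's test. DESeq2 called 1 respiratory chain gene lower, COX6A1 of complex IV (110 and 103 scaled CPM in WT, 55.0 and 53.0 in S1KO, -0.98 ± 0.15, edgeR adjusted p = 0.0531), and 1 cytosolic ribosomal protein gene higher, RPL21. The members' median of -0.06 lay between the medians of these lists and that of the assembly factors.

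**Figure D4:**
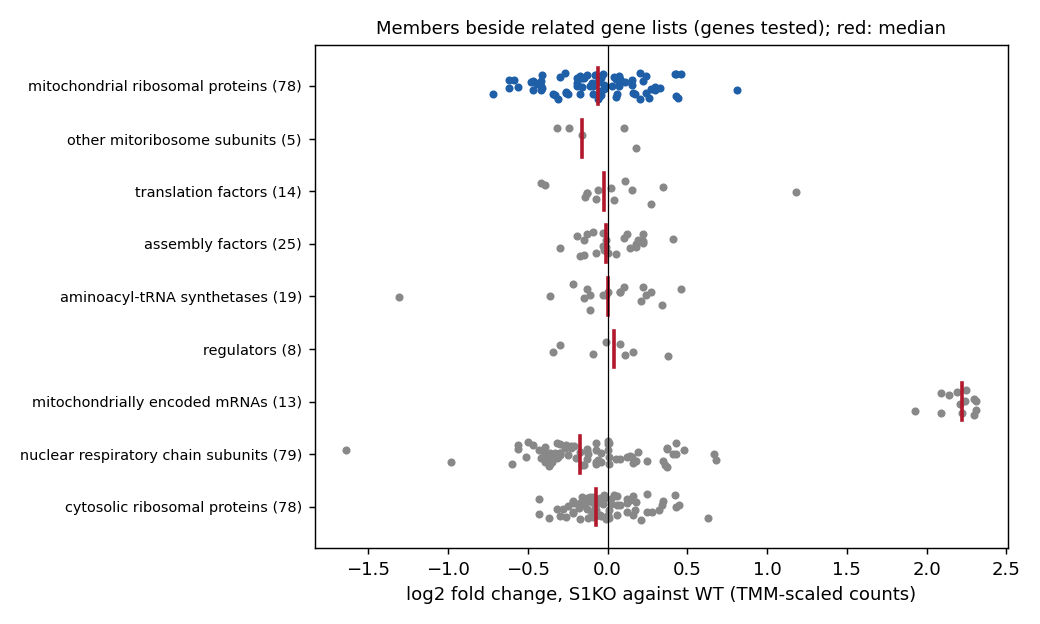
Log2 difference between S1KO and WT (TMM-scaled counts) for each gene tested in the members and in 8 related lists, with the median as a red line and vertical scatter only to separate points. The members and 7 of the lists have medians between -0.17 and 0.04, and the 13 mitochondrially encoded mRNAs lie between 1.93 and 2.31.

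Most member reads fell on coding transcripts. Transcripts annotated as protein coding, alternate copies included, held 87.2 and 84.4% of the member counts in WT and 85.2 and 82.2% in S1KO, beside 82.8, 80.2, 84.6 and 81.4% over all nuclear protein-coding genes. Retained intron transcripts held 6.52 and 7.54% in WT and 8.20 and 9.63% in S1KO, while over all such genes they held 10.5 and 12.1% in WT and 8.65 and 11% in S1KO. The genotypes did not overlap for the members, and this rested on MRPS5 and MRPS11: without them the WT libraries gave 4.76 and 6.10% and the S1KO libraries 4.29 and 6.25%, which overlap. The same transcript led in all 4 libraries in 67 of the 78 members. The split between transcripts of a gene is an estimate from short reads and carries more error than the gene's total.

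By at least 10 percentage points and without overlap, 18 of the 539 member transcripts, in 13 genes, differed in their share of the gene's counts. These are 3.34% of member transcripts and 16.7% of members, against 6.56% of transcripts and 37.4% of genes over the nuclear protein-coding genes tested. The members' shares are below the background, and that difference was not tested. The largest was MRPS11-207, a retained intron transcript, at 23.1 and 13.5% of MRPS11 in WT and 54.0 and 55.6% in S1KO. Its scaled CPM were 7.01 and 3.25 in WT and 20.7 and 20.2 in S1KO, while all coding transcripts of MRPS11 held 12.3 and 9.34 in WT and 10.2 and 11.7 in S1KO. Other retained intron transcripts of the gene did not share this pattern, such as MRPS11-204 at 6.33 and 6.36 in WT and 5.91 and 1.70 in S1KO. The higher total of MRPS11 in S1KO thus lay on MRPS11-207 and not on the coding transcripts.

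In MRPS5 too, the higher total in S1KO did not lie on the coding transcript. Retained intron transcripts of the gene held 24.9 and 17.9 scaled CPM in WT against 53.7 and 45.1 in S1KO. Of these, MRPS5-206 held 10.6 and 4.84 in WT and 37.6 and 25.8 in S1KO, while MRPS5-208 overlapped (6.64 and 9.53, 7.49 and 9.05). The MRPS5 transcript annotated for nonsense-mediated decay held 20.6 and 13.6 in WT and 32.5 and 36.9 in S1KO. That of MRPS11 was instead lower in S1KO (1.31 and 2.31 in WT, 0.304 and 0.485 in S1KO). The coding transcript MRPS5-201 held 28.9 and 20.4 in WT and 26.9 and 26.1 in S1KO, where the genotypes overlapped. As a share of the gene, MRPS5-201 held 38.8 and 39.4% in WT and 23.8 and 24.1% in S1KO. MRPS34, whose total gave a log2 difference of -0.04, held more of its counts on the retained intron transcript MRPS34-203, at 22 and 14.4% in WT and 29 and 33.5% in S1KO.

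MRPL30 showed the opposite pattern. The coding transcript MRPL30-201 held 59.9 and 60.6% of its counts in WT and 99.1 and 72.6% in S1KO, and MRPL30-203, annotated for nonsense-mediated decay, held 30.8 and 25.3% in WT and 0.864 and 5.06% in S1KO. In MRPS6 the retained intron transcript MRPS6-204 held 19.8 scaled CPM in WT 2 against 4.50 in WT 1, 2.55 in S1KO 1 and 3.63 in S1KO 2, so part of the high WT 2 total of that gene lay there. In MRPL49 the share of the coding transcript MRPL49-201 was low in WT 2 alone, at 35.2% against 89.2% in WT 1, 95.9% in S1KO 1 and 93.5% in S1KO 2.

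**Figure D5:**
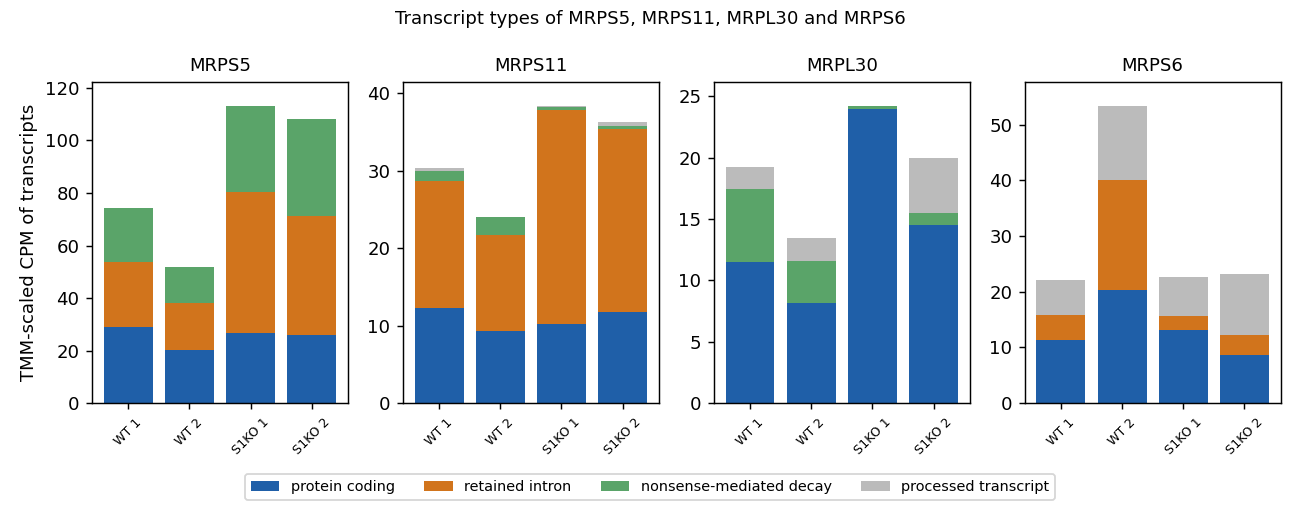
Stacked TMM-scaled CPM of the transcripts of MRPS5, MRPS11, MRPL30 and MRPS6 by annotated type in each library (each panel has its own axis from 0). In MRPS5 and MRPS11 the coding part is level (26.9 and 26.1 against 28.9 and 20.4 in MRPS5) and the retained intron part is taller in S1KO, while in MRPL30 the coding part is the taller one.

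Across the 78 members, log2 differences were higher where the effective transcript length was longer. Spearman's rho between the difference and the mean effective length was 0.431, against 0.0491 over all 15378 genes. With length allowed for in the fit the value was 0.385. These are descriptions over genes that share the same 4 libraries.

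Some member counts are less certain than others. Pseudogene copies held counts equal to 38.5 and 47.9% of the gene's own in WT and 29.7 and 64.0% in S1KO for MRPS31, and to 13.4, 22.1, 43.1 and 44.9% for MRPS17. For MRPL45 they were between 18.3 and 35%, and for MRPL37 between 3.47 and 38.8%. Exons of 29 members overlap an exon of a gene on the opposite strand, MRPS11 and MRPL19 among them, and the sources used here do not say whether strand was used in the counting, so reads there cannot be told apart.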

How the data were processed

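Poly(A) RNA of 4 iMGL libraries (2 WT, 2 S1KO) was sequenced as paired reads of 150 bases, per the labels' protocols. Per the submitters' processing notes, kallisto was used with hg38. No version or strand setting was found in the sources. The deposited tables give each transcript's estimated count, TPM and effective length, per the file headers. Transcripts were named with GENCODE release 29, by identifier for 169797 of 188753 and by symbol for 15521; 3435 stayed unnamed and held 0.323 to 0.643% of the counts. Estimated counts were summed per gene and rounded to whole numbers. In R 4.3.3, edgeR 4.0.16 (filterByExpr, TMM, quasi-likelihood test) tested S1KO against WT over all genes with Benjamini-Hochberg adjustment at 0.05. Scaled CPM divide these counts by the TMM-adjusted library size. Nuclear TPM is TPM rescaled to the same total after mitochondrially encoded genes and their nuclear copies were removed. DESeq2 1.42.0, limma 3.58.1 on log2(TPM + 1) and log2(TPM + 0.1), other filters, an effective length offset, coding transcripts only and leaving out each library were the alternatives. The fits were tested on simulated data.

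Members and lists were chosen with earlier results of these data known, so no set test was made and no p was adjusted over a list; sums over the members were compared by exact permutation over libraries, where 2 against 2 cannot pass 0.05. Named genes were those of the 5 highest and 5 lowest log2 differences, the 4 highest and 4 lowest TPM, the 3 whose libraries of a genotype lay farthest apart, the 3 of lowest coding share, up to 3 whose sign turned with the length offset, the MRPS18 paralogs, the members with roles apart and up to 3 genes of each related list. Those named outside this rule, among them MRPL14, MRPL49 and the genes in counts of 10 or fewer, were chosen after their values were seen. Promoter letters were searched in 300-base RefSeq windows. The replicate numbers did not pair the libraries: deviations of same-numbered libraries correlated at 0.0234 over 2 pairs.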

Additional observations from a re-analysis of the deposited data

How the results depend on the processing

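Beside 144 genes called in all, DESeq2 called 1152, edgeR without a filter 1362, a stricter filter 223, limma 2893 on log2(TPM + 1), 2638 on log2(TPM + 0.1) and 298 on nuclear TPM, and coding transcripts alone 21. With the replicate block, 0 genes and 0 members were called and the median of the members was -0.06; the block changed no call of a member, and with it C12orf65 had an adjusted p of 0.0787. Leaving out a library gave 0 to 2148 genes (2007 without WT 1, 2148 when WT 2 was dropped, and 0 when either S1KO library was), where the spread of the single remaining library was taken from the other genotype. Members called lower were 0 to 2 on leaving out a library (MRPS6 without WT 1, MRPL14 and MRPL24 without WT 2), 14 on log2(TPM + 1) and 12 on log2(TPM + 0.1). Members called higher were 1 by DESeq2, 1 without a filter and 0 to 1 on leaving out a library, MRPS5 each time. Members lower without overlap were 22, with 73 on TPM, 11 on nuclear TPM and 24 to 46 on leaving out a library (46 without WT 2, 38 without S1KO 1, beside 36.8 to 39.6% of all genes). The median of the members was -1.01 and -1.04 with the higher and lower pseudocount on TPM, and -0.18 to 0.03 on leaving out a library. The 8-letter NRF1 core, added after the data were seen, gave 8.70% in place of 1.45%. As no member passed the main test, each turn of sign was in a member not called, and the cause was not tested. Of all 78 members 29 turned on each TPM scale, 14 on nuclear TPM, 7 with the length offset, 2 with the stricter filter, 3 on coding transcripts alone and 10 to 17 on leaving out a library. Of the 27 named members, those on log2(TPM + 1) and log2(TPM + 0.1) were MRPL13 (-0.63, -0.70), MRPL19 (-0.73, -0.82), MRPL30 (-0.89, -1.02), MRPL44 (-0.70, -0.78), MRPS11 (-1.0, -1.03), MRPS18B (-0.71, -0.74), MRPS18C (-0.90, -0.99), MRPS30 (-0.84, -0.95) and MRPS35 (-0.51, -0.55). Named members that turned on nuclear TPM were MRPL41 (0.017), MRPL50 (0.0067), MRPL52 (0.22), MRPL53 (0.046), MRPL58 (0.0073), MRPS17 (0.046) and MRPS34 (0.17). Those with the length offset were MRPL30 (-0.05), MRPL52 (0.13), MRPS11 (-0.037), MRPS18C (-0.004) and MRPS34 (0.064). Among named members the stricter filter turned MRPL53 (0.006) and coding transcripts alone MRPS18C (-0.014). On leaving out a library, values of the named members that turned ran for MRPL13 from -0.31 to 0.53, MRPL41 from -0.15 to 0.033, MRPL44 from -0.19 to 0.59, MRPL50 from -0.53 to 0.24, MRPL53 from -0.078 to 0.015, MRPL58 from -0.24 to 0.053, MRPS17 from -0.21 to 0.17, MRPS18C from -0.023 to 0.085, MRPS30 from -0.22 to 0.27, MRPS34 from -0.2 to 0.14 and MRPS6 from -1.22 to 0.054.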

Other observations

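The MTRNR2L genes, near-identical nuclear copies of the mitochondrial 16S rRNA gene, held 1.21 and 1.19% of all counts in WT and 6.31 and 2.50% in S1KO. They were looked at after their values were seen, and their reads cannot be told apart from those of the mitochondrial gene. No value of MT-RNR2 was used here, so these counts are not read as levels of the copies or of the mitochondrial gene. MTRNR2L12 gave 7820 and 8492 scaled CPM in the WT libraries and 80384 and 22582 in the S1KO libraries (log2 difference 2.66 ± 0.67, SE). Its adjusted p was 0.114 by edgeR's quasi-likelihood test and 0.0190 by DESeq2. The members' summed nuclear TPM stayed between 4588 and 5473 in the same libraries.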
